A study of Gallus gallus with 88 samples.

Results

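The genes of the mitochondrial ribosome and of mitochondrial protein import were followed in the hind muscle (M. gastrocnemius) of broiler chickens whose eggs had been kept warmer or cooler for a few days of incubation. Members were the probe sets whose only gene symbol in the array annotation begins with MRPL or MRPS and a digit, or with TOMM or TIMM. This rule took 79 of 20706 probe sets, which stand for 74 of 11528 genes with a symbol of their own: 35 MRPL genes, 23 MRPS genes, 8 TOMM genes and 8 TIMM genes. For the 5 genes with more than 1 probe set (MRPL28, MRPL35, MRPL45, MRPS26 and TIMMDC1), the probe set with the highest mean in a stage stood for the gene, and 1 further probe set that carries the symbols of MRPL12 and SLC25A10 together was left out.

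Mitochondria make a few of their own proteins, all core parts of the respiratory chain and ATP synthase, on a ribosome of their own whose protein parts are encoded in the nucleus. Most MRPL genes encode parts of its large subunit, which joins amino acids, and most MRPS genes parts of its small subunit, which reads the mRNA. The groups used here follow the symbols: among the MRPS genes MRPS18A and MRPS30 sit in the large subunit in mammals and MRPS36 was later assigned to the 2-oxoglutarate dehydrogenase complex, and among the TIMM genes TIMMDC1 is an assembly factor of respiratory complex I. Like nearly all mitochondrial proteins, these are made in the cytosol and imported: the TOM complex of the outer membrane recognises and threads them, and the TIM complexes of the inner membrane and the space between the membranes sort them onward. Muscle draws heavily on this system as its fibres form.

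All animals were broilers of a commercial Cobb-Vantress line, and every array held RNA of 1 animal, with 8 arrays per group. Eggs were incubated at 37.8 °C apart from 1 window. In the groups sampled as embryos on embryonic day (ED) 10, the window of ED7 to ED10 was spent at 38.8 °C (H10), 37.8 °C (C10) or 36.8 °C (L10), and in those sampled on ED13 the window of ED10 to ED13 was spent at 38.8 °C (H13), 37.8 °C (C13) or 36.8 °C (L13). The same windows and temperatures gave the chickens slaughtered at day 35 after hatching (D35), here D35 H10, D35 L10, D35 H13 and D35 L13, beside 8 controls (D35 C), of which 2 belonged to the C10 and 6 to the C13 treatment. The warm windows were also run at a higher humidity than all others, per the study's methods, so the effects of temperature and humidity cannot be told apart in the H groups.

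Values are log2 signals, so a difference of 1 is a factor of 2. A difference was called where the p-value of limma's moderated test, adjusted by the Benjamini-Hochberg method over all 20706 probe sets, was at most 0.05. Embryos and D35 chickens were fitted apart and are not compared, because their value distributions differ. The median of all probe sets ran from 7.90 to 8.29 over the 48 embryo arrays and from 6.64 to 6.98 over the 40 D35 arrays. Skeletal muscle markers were measured in all arrays, and the mean of 19 sarcomere genes per array ran from 10.12 to 12.21 in embryos and from 10.95 to 12.68 at D35. In bulk tissue, fewer cells of a type and less RNA per cell cannot be told apart. Embryo numbers fall into a lower series (up to 42) and a higher one (from 51). At D35 arrays were split where the ascending numbers start again in the order of the records, and the numbers of both runs overlap. What either split stands for is not stated. At both ages all H groups lie in the first of these sets and all L groups in the second, with 4 arrays of each control group in each.

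Most member genes lay below the level of the background controls, as did most of all probe sets. In embryos 51 of the 74 had a mean below 9.71, the 95th percentile of the 23 background control probe sets, and at D35 60 were below the corresponding 9.49. In embryos 11 MRPL genes (MRPL3, MRPL14, MRPL19, MRPL21, MRPL24, MRPL28, MRPL30, MRPL37, MRPL47, MRPL50 and MRPL51), 4 MRPS genes (MRPS2, MRPS7, MRPS18A and MRPS34), 5 TOMM genes (TOMM7, TOMM20, TOMM22, TOMM40L and TOMM70) and 3 TIMM genes (TIMM8A, TIMM17B and TIMM23B) stood above that level. The median of all probe sets also lay below the level, so a member under it was not necessarily without signal. Taken as the mean of the 74 members per array, the module moved little: group means ran from 9.24 ± 0.11 (SD, n = 8) in C13 to 9.36 ± 0.15 in L10 in embryos, and from 8.46 ± 0.17 in D35 L10 to 8.58 ± 0.14 in D35 L13. The array means overlapped between all groups of a stage.

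Warm incubation in ED7 to ED10, which was also more humid, was compared with its control at the end of the window. A single member was called, TOMM7, which was higher in H10. TOMM7 is a small subunit of the outer membrane complex that governs how the complex assembles. Its log2 values ran from 10.46 over a median of 10.58 to 10.69 in H10 and from 10.27 over 10.38 to 10.45 in C10. The lowest H10 embryo lay above the highest C10 embryo, so the groups did not overlap, and TOMM7 was the only member of which this held. The difference was 0.21 (SE 0.043, limma adjusted p = 0.0184), or 1.16-fold. Of all probe sets 0.13% were called in this comparison, 0.0676% as higher, and 0.0869% did not overlap between the groups. At an unadjusted p of 0.05, 4 members were higher and 0 lower, beside 9.3% of all probe sets. Without H10 replicate 6 the difference was 0.20 and the adjusted p 0.0531, and against only the 4 controls of the same number series it was 0.21 with an adjusted p of 0.130. Fitted on H10 and C10 alone, the same difference had an adjusted p of 0.226.

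The other TOMM genes had positive differences too. All 8 TOMM genes lay above 0, also under quantile normalization and centring, with a median of 0.07, but 7 did not pass the test. TOMM6, another small TOM subunit, ran from 9.19 over 9.58 to 9.96 in H10 and from 9.02 over 9.22 to 9.54 in C10. In 5 of the 8 H10 embryos it exceeded every control, and the difference of 0.38 (SE 0.094) had an adjusted p of 0.0854. TOMM5 followed at 0.30, with an SE of 0.26 and an adjusted p of 0.793. The 35 MRPL genes had a median of 0.05 with 25 above 0, the 23 MRPS genes of -0.02 with 11 above 0, and the 8 TIMM genes of -0.02 with 2 above 0, which turned to 0.01 with 6 above 0 on centring. Over all 74 members the median was 0.04, with 46 above 0, beside -0.03 over all probe sets, and against the controls of the same number series it was -0.01 with 35 above 0, among them 6 of the 8 TOMM genes. Without H10 replicate 12 the median was -0.0004, and without C10 replicate 70 it was 0.06. Under quantile normalization and under centring on array medians, TOMM6 and MRPL46, a large subunit gene, were called as higher along with TOMM7. The share of all probe sets called under either scaling is not given here.

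Markers of other tissues differed between the same embryos without a call. All 9 skin and feather markers lay lower in H10, with a median of -0.69 and array means from 5.89 to 9.69 beside 8.44 to 10.02 in C10, and all 19 sarcomere genes lay higher, with a median of 0.15. Their part in these differences was not tested beyond the following fits. With the skin markers or the sarcomere genes as a covariate, the difference of TOMM7 was 0.23 in either fit and remained called. Beyond the members, 1 of 35 measured import partners, chaperones and proteases was called, the mitochondrial aminopeptidase XPNPEP3, which was lower in H10 by -0.25 (adjusted p = 0.0253). None of the 38 measured genes of mitochondrial translation and genome expression and none of the 11 biogenesis regulators was called.

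**Figure D1:**
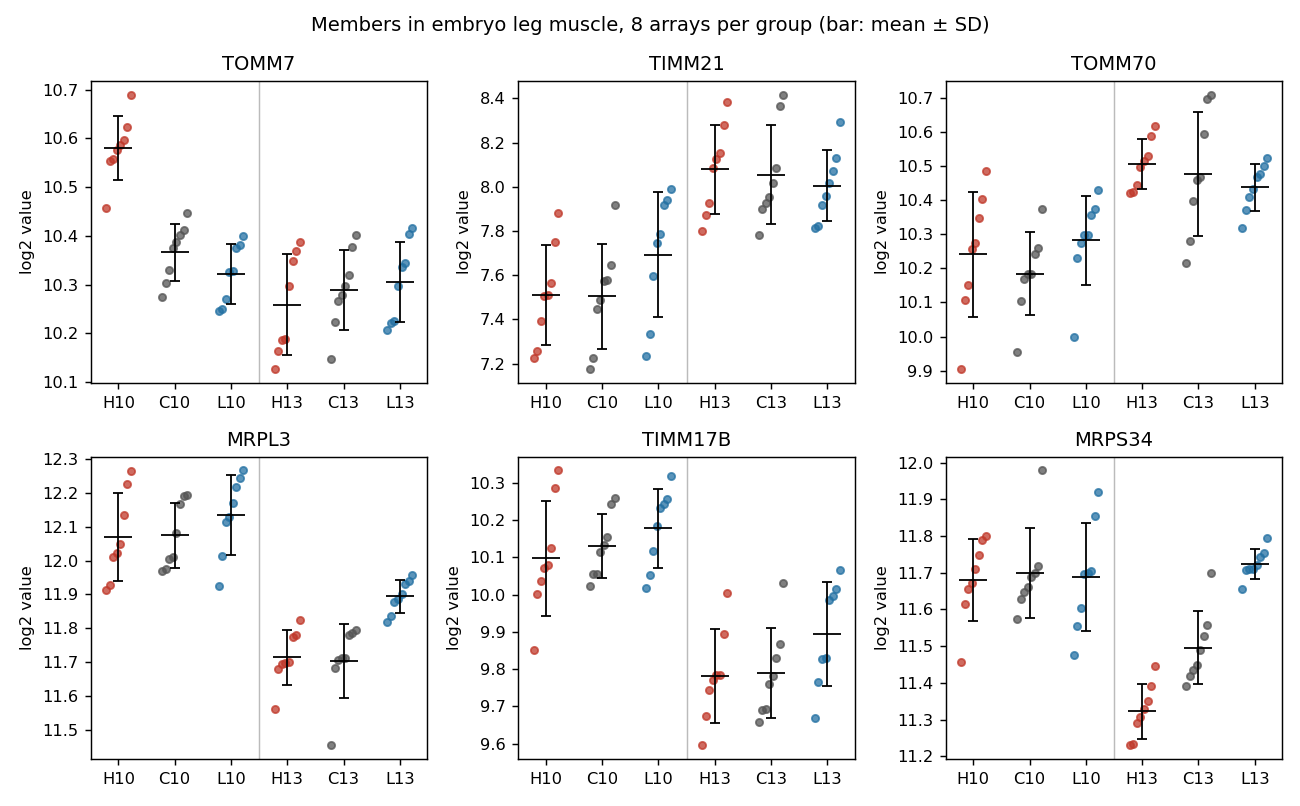
Log2 values of TOMM7, TIMM21, TOMM70, MRPL3, TIMM17B and MRPS34 (y axis, a range of its own per panel) in the 6 embryo groups (x axis, ED10 groups left of the grey line). Points are arrays, 8 per group, and bars the mean ± SD; TOMM7 in H10 stands above all other ED10 embryos, TIMM21 and TOMM70 are higher at ED13, and MRPL3 and TIMM17B lower.

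Cool incubation in the same window called no member and no probe set at all (0%). No member's groups were apart, beside 0.0386% of all probe sets. At an unadjusted p of 0.05, 7 members were higher in L10 than in C10 and 0 lower, beside 4.3% of all probe sets. MRPL53, a large subunit gene, had the highest difference. Its values ran from 7.76 over 8.54 to 8.73 in L10 and from 7.64 over 8.03 to 8.79 in C10, where the highest value came from 1 embryo that stood apart from the other 7. The groups overlapped, and the difference of 0.32 (SE 0.13) had an adjusted p of 0.951. MRPS26, of the small subunit, had the lowest difference, -0.11 (SE 0.13, adjusted p = 0.952), with values from 8.81 over 8.92 to 9.78 in L10 beside 8.64 over 9.15 to 9.62 in C10. The highest L10 value came from replicate 59, without which the difference was -0.22 (adjusted p = 0.445), and without C10 replicate 65 it was -0.04. L10 replicate 59 had the lowest median of all probe sets among the embryo arrays, 7.90, and the lowest mean of the members, 9.06. The other probe set of MRPS26 lay above 0, at 0.03 (SE 0.058, adjusted p = 0.972). The 8 TIMM genes all lay above 0, with a median of 0.06 (6 under quantile normalization or centring), and among them TIMM44, which holds the import motor at the inner membrane, differed by 0.23 (SE 0.093, adjusted p = 0.951). Over all members the median was 0.05 with 54 above 0, beside 0.03 over all probe sets, and it was 0.01 with 42 above 0 under quantile normalization and 0.10 with 58 above 0 against the controls of the same number series. It was 0.09 without L10 replicate 59 and 0.02 without C10 replicate 65.

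In the later window, warm incubation also called no member, beside 0.00966% of all probe sets. At an unadjusted p of 0.05, 3 members were higher in H13 and 5 lower, beside 10.4% of all probe sets. MRPL41, of the large subunit, lay lowest: it ran from 8.58 over 8.95 to 9.10 in H13 and from 8.88 over 9.22 to 9.56 in C13. Though 3 H13 embryos were under every control, the groups overlapped, and the difference of -0.34 (SE 0.11) had an adjusted p of 0.283. MRPS36 had the highest difference, 0.31 (SE 0.23, adjusted p = 0.675), over values from 8.36 to 9.11 in H13 that all fell inside the 7.60 to 9.15 of C13. MRPS2, of the small subunit, was measured well above background and differed by 0.27 (SE 0.081, adjusted p = 0.263). The median over the members was 0.02 with 43 above 0, beside 0.01 over all probe sets, and it turned to -0.03 with 32 above 0 against the controls of the same number series and to -0.0065 without C13 replicate 91. All 9 skin and feather markers lay lower in H13, with a median of -1.05 and array means from 6.01 to 10.14 beside 6.77 to 10.55, and 18 of 19 sarcomere genes higher, with a median of 0.15, none of them called. Their part in the members' values was not tested beyond the fits with these markers as covariates, in which no member was called. No member was called without the covariates either, so the absence of calls says little about that part.

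Cool incubation in ED10 to ED13 likewise called no member, beside 0.0193% of all probe sets. At an unadjusted p of 0.05, 5 members were higher and 0 lower, beside 7.4% of all probe sets. MRPS34, a small subunit protein, came nearest. Its values ran from 11.66 over 11.72 to 11.80 in L13 and from 11.39 over 11.47 to 11.70 in C13, so that 7 of 8 cooled embryos exceeded every control. The difference was 0.23 (SE 0.055, adjusted p = 0.176), and quantile normalization brought it past the threshold. In H13 the same gene ran from 11.23 over 11.32 to 11.45, with 7 of 8 warmed embryos under every control, and the difference of -0.17 (SE 0.055) had an adjusted p of 0.283. Both differences share the C13 embryos. MRPL3, a core protein of the large subunit, did not overlap between L13 (11.82 over 11.89 to 11.96) and C13 (11.46 over 11.71 to 11.79), as held for 0.13% of all probe sets, and its difference of 0.19 (SE 0.053) had an adjusted p of 0.267.

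By the extremes, MRPS33 was highest in L13 against C13 (0.27, SE 0.098, adjusted p = 0.507), with 8.91 over 9.26 to 9.48 beside 8.67 over 8.998 to 9.14. MRPS26 was lowest (-0.14, SE 0.13, adjusted p = 0.900), with 8.72 over 9.07 to 9.19 beside 8.83 over 9.17 to 9.52. Both pairs of groups overlapped. The other probe set of MRPS26 lay above 0, at 0.09 (SE 0.058, adjusted p = 0.793), so the sign for this gene depended on the probe set. In all, 55 of the 74 members lay above 0 with a median of 0.05, beside 0.01 over all probe sets, and against the controls of the same number series 62 lay above 0 with a median of 0.11. Leaving out 1 array gave medians from 0.03 (without C13 replicate 91) to 0.08 (without C13 replicate 41).

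Whether an effect of temperature differed between the windows was tested as an interaction, and no member was called for warming (0.00966% of all probe sets) or cooling (0%). At an unadjusted p of 0.05 there were 3 for warming, all lower, beside 7.55% of all probe sets, and 1 for cooling, beside 3.48%. For TOMM7 the warm effect in the later window minus that in the earlier one was -0.24 (SE 0.061), with an adjusted p of 0.131. In this fit the call at ED10 was thus not shown to differ from its absence at ED13. With precision weights per array TOMM7 was called for this interaction, and with dim probe sets left out 1 member was called, so the outcome depended on the setting. TOMM6 had the lowest such value, -0.40 (SE 0.13, adjusted p = 0.322), and MRPS35 the highest, 0.27 (SE 0.16, adjusted p = 0.773). For cooling, MRPS34 had the highest value, 0.24 (SE 0.078), and MRPL53 the lowest, -0.30 (SE 0.19), each with an adjusted p of 0.9999.

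The most calls among the members came between ED10 and ED13, days in which the muscle fibres form. The comparison was made in controls, in warmed and in cooled embryos, which share no arrays. In the warmed and cooled embryos the window of treatment also shifted with age. In controls 4 members rose and 9 fell, beside 28.2% of all probe sets called, 11.8% higher and 16.4% lower. In warmed embryos 3 rose and 18 fell, beside 26.6%, with 14.3% higher and 12.4% lower. In cooled embryos 3 rose and 7 fell, beside 25%, with 9.76% higher and 15.2% lower. The members' share of calls was thus below that of the whole array in controls and cooled embryos and near it in warmed embryos, and in each comparison more members fell than rose.

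TIMM21 and MRPL33 rose in all 3 comparisons. TIMM21 sits in the inner membrane and in yeast and human cells links the TIM23 channel to the outer membrane complex. In controls it ran from 7.78 over 7.98 to 8.42 at ED13 and from 7.17 over 7.53 to 7.92 at ED10. At ED13 6 of 8 embryos exceeded every ED10 control, and the rise was 0.55 (SE 0.11, adjusted p = 0.000132), or 1.46-fold. In warmed embryos TIMM21 went from 7.23 over 7.51 to 7.88 up to 7.80 over 8.10 to 8.38, a rise of 0.57 (SE 0.11, adjusted p = 9.47e-05). In cooled embryos it went from 7.24 over 7.77 to 7.99 up to 7.82 over 7.99 to 8.29, a rise of 0.31 (SE 0.11, adjusted p = 0.035). TIMM21 lay below the background level in all 6 groups, and its call among the cooled embryos was lost when any 1 of 6 arrays was left out.

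MRPL33, a small protein of the large subunit, rose by 0.17 in controls (SE 0.066, adjusted p = 0.0461), by 0.18 in warmed embryos (SE 0.066, adjusted p = 0.0417) and by 0.25 in cooled embryos (SE 0.066, adjusted p = 0.00336). In cooled embryos its values went from 8.46 over 8.71 to 8.97 up to 8.88 over 8.95 to 9.11, and in warmed embryos from 8.48 over 8.76 to 8.93 up to 8.66 over 8.94 to 9.05. Both overlapped. Among warmed embryos the call was lost on leaving out any 1 of 10 arrays. The adjusted p in controls lay nearest to 0.05, and results without single arrays are not given here for that call. Like TIMM21, MRPL33 lay below the background level, with a mean of 8.81 over the embryos.

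The receptors of the outer membrane differed among themselves. TOMM70, which takes up carrier proteins, rose in controls from 9.95 over 10.18 to 10.37 up to 10.21 over 10.46 to 10.71 (0.29, SE 0.069, adjusted p = 0.000815). In warmed embryos it rose from 9.90 over 10.27 to 10.49 up to 10.42 over 10.51 to 10.62 (0.26, SE 0.069, adjusted p = 0.00282), and in cooled embryos its difference of 0.15 had an adjusted p of 0.101. TOMM20, which binds presequences, rose in cooled embryos from 11.06 over 11.34 to 11.55 up to 11.47 over 11.63 to 11.69 (0.25, SE 0.063, adjusted p = 0.0023). Its rise in controls, from 11.08 over 11.31 to 11.59 up to 11.29 over 11.48 to 11.61 (0.17, SE 0.063), had an adjusted p of 0.0411. That call was lost on leaving out any 1 of 9 arrays. TOMM22, the central receptor that organises the complex, fell in all 3 comparisons. In cooled embryos it went from 11.38 over 11.49 to 11.55 down to 11.15 over 11.26 to 11.37 without overlap, as held for 7.63% of all probe sets (-0.23, SE 0.053, adjusted p = 0.000908), and the differences were -0.21 in controls and -0.25 in warmed embryos.

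MRPL3, MRPL51 and TIMM17B also fell in all 3. MRPL3 went from 11.97 over 12.05 to 12.19 down to 11.46 over 11.71 to 11.79 in controls, with every ED13 embryo under every ED10 embryo, as held for 8.29% of all probe sets. The difference was -0.37 (SE 0.053, adjusted p = 3.81e-07), or 0.774-fold. In warmed embryos it went from 11.91 over 12.04 to 12.26 down to 11.56 over 11.70 to 11.82, again without overlap (-0.35, SE 0.053, adjusted p = 1.02e-06). In cooled embryos it went from 11.93 over 12.15 to 12.27 down to 11.82 over 11.89 to 11.96, with 5 of 8 embryos under the ED10 range (-0.24, SE 0.053, adjusted p = 0.000486).

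MRPL51, another large subunit gene, went from 10.17 over 10.24 to 10.37 down to 9.76 over 9.88 to 10.07 in controls without overlap (-0.36, SE 0.073, adjusted p = 0.000107). In warmed and cooled embryos it fell by 0.38 and 0.25. TIMM17B, a core part of the presequence channel of the inner membrane, went from 10.03 over 10.12 to 10.26 down to 9.66 over 9.77 to 10.03 in controls (-0.34, SE 0.064, adjusted p = 4.2e-05), and 7 of 8 ED13 embryos were under the ED10 range. In cooled embryos it went from 10.02 over 10.21 to 10.32 down to 9.67 over 9.91 to 10.07 (-0.28, SE 0.064, adjusted p = 0.000607).

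Some falls were called in part of the comparisons. TOMM7 fell from H10 to H13, from 10.46 over 10.58 to 10.69 down to 10.13 over 10.24 to 10.39, without overlap, as held for 7.27% of all probe sets (-0.32, SE 0.043, adjusted p = 9.93e-08), and its value of -0.02 in cooled embryos had an adjusted p of 0.849. In controls TOMM7 had a mean of 10.37 in C10 and a lower one of 10.29 in C13, without a call. The H10 embryos here are those in which TOMM7 was higher than in C10. MRPS34 fell from 11.46 over 11.69 to 11.80 down to 11.23 over 11.32 to 11.45 in warmed embryos, without overlap (-0.36, SE 0.055, adjusted p = 1.61e-06), and by 0.20 in controls (adjusted p = 0.00367), whereas its difference in cooled embryos was above 0, at 0.04 (adjusted p = 0.720). In controls MRPL21, MRPL24 (no overlap), MRPS7 and TIMM10, a chaperone between the membranes, fell by 0.21, 0.22, 0.19 and 0.27. Differences between the falls in treated and in control embryos are the interactions above, in which no member was called in the main fit, and warmed were not tested against cooled embryos.

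Counted over the 3 comparisons, 4 members rose and 22 fell in at least 1, and none was called in opposite directions. Of the 74 members 42 had the same sign in all 3, with 33 below 0 and 9 above 0. The same counts over all probe sets are not given here, so these counts do not set the members apart from the array. Medians over the members were -0.08 in controls, -0.07 in warmed and -0.07 in cooled embryos, beside -0.02, 0.00 and -0.03 over all probe sets. Leaving out 1 array gave -0.11 (without C10 replicate 65) to -0.04 (without C13 replicate 91) in controls and -0.11 (without L10 replicate 59) to -0.04 (without L10 replicate 51) in cooled embryos. Quantile normalization gave 3 higher and 17 lower in controls, 3 and 27 in warmed and 4 and 8 in cooled embryos, and precision weights per array 4 and 19, 3 and 19, and 2 and 16. Within the 2 number series the control comparison called 2 higher and 5 lower, and 2 higher and 7 lower. Shares of all probe sets called under these other settings are not given here, so these counts do not set the members apart from the array.

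**Figure D2:**
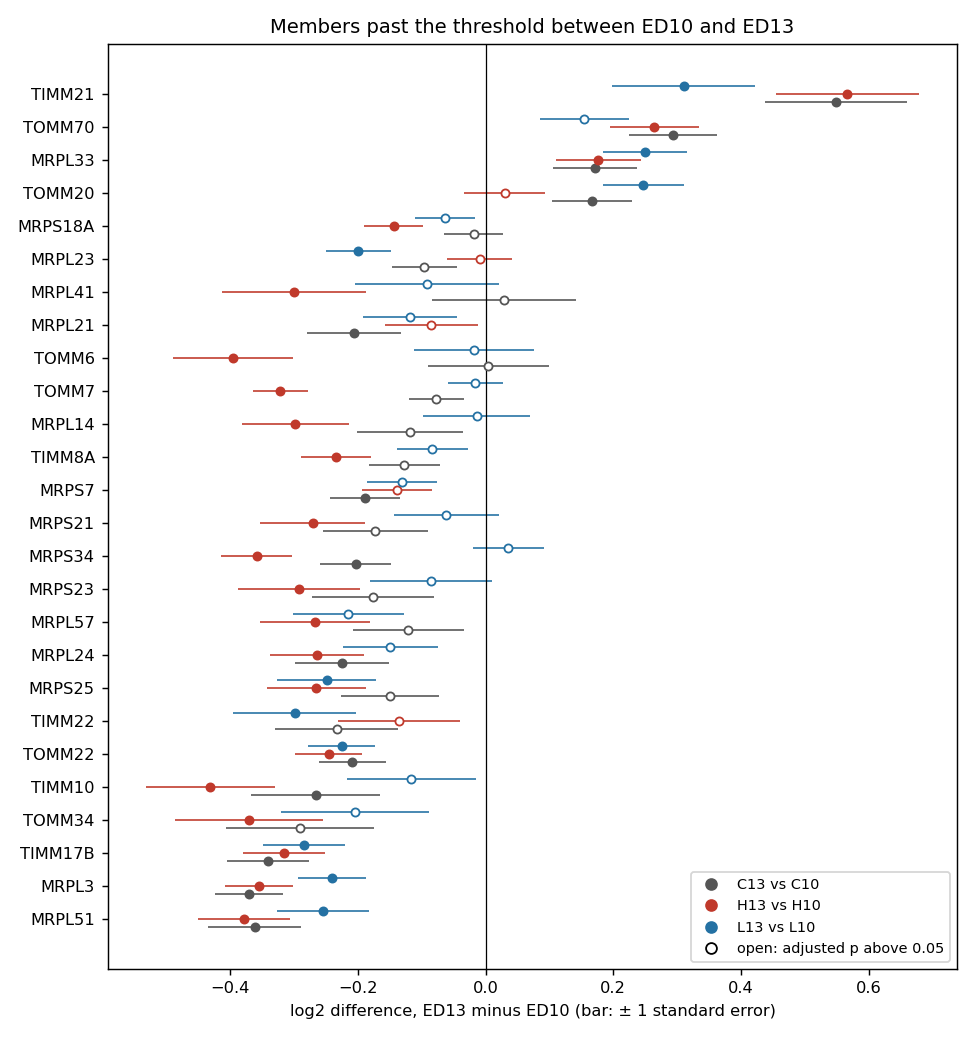
Log2 differences of ED13 minus ED10 (x axis) for the 26 members called in at least 1 of the comparisons of controls (grey), warmed (red) and cooled embryos (blue), with bars of ± 1 standard error and open points where the adjusted p was above 0.05. All filled points of TIMM21, TOMM70, MRPL33 and TOMM20 lie to the right of 0, and those of the 22 others to the left.

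Markers of muscle fibres and of other cell types also differed between the same days. Whether cell numbers or RNA per cell changed cannot be told apart. Of 19 sarcomere genes 18 rose in each of the 3 comparisons, with medians of 1.04, 0.94 and 0.94, and their mean per array did not overlap between ED10 (10.12 to 11.26) and ED13 (11.64 to 12.21). Of 12 cartilage markers 7 fell in controls and 9 in cooled embryos, and of 5 adipocyte markers 4 rose in each. The cartilage count in warmed embryos is not given here. Of all probe sets 11.8%, 14.3% and 9.76% were called as higher in controls, warmed and cooled embryos, and 16.4%, 12.4% and 15.2% as lower. With the mean of the sarcomere genes as a covariate, 0 members were called as higher in any of the 3 and 10, 10 and 6 as lower. The share of all probe sets called with this covariate is not given here. MRPL3 and TOMM22 remained called as lower in all 3, and TIMM21, TOMM70, TOMM20 and MRPL33 were no longer called. In that fit TIMM21 stood at 0.22 (SE 0.21) in controls, 0.24 (SE 0.21) in warmed and -0.04 (SE 0.22) in cooled embryos, TOMM20 at 0.08 (SE 0.12) in controls and 0.15 (SE 0.125) in cooled embryos, TOMM70 at -0.0035 (SE 0.12) in controls and -0.0324 (SE 0.12) in warmed embryos, and MRPL33 at -0.15 (SE 0.11) in warmed and -0.10 (SE 0.12) in cooled embryos. Because the covariate did not overlap between the days, it and the day can hardly be told apart, the standard errors were larger than without it, and a lost call shows little by itself.

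Falls did not outnumber rises in every mitochondrial family. Of 53 genes of the respiratory chain and ATP synthase, whose mitochondrial parts this ribosome makes, 9 rose and 2 fell in controls, 9 and 5 in warmed and 11 and 2 in cooled embryos, with medians of 0.09, 0.03 and 0.11. Among 54 cytosolic ribosomal protein genes, as among the members, more fell than rose: 2 rose and 6 fell in controls, 1 and 18 in warmed and 2 and 4 in cooled embryos. The differences between these families were not tested. Of all probe sets 28.2%, 26.6% and 25% were called in controls, warmed and cooled embryos.

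Among 38 genes of mitochondrial translation and genome expression, 1 rose and 3 fell in controls, 4 and 5 in warmed and 0 and 3 in cooled embryos. MARS2, the mitochondrial methionyl-tRNA synthetase, fell in all 3, by 0.27 in controls, 0.33 in warmed and 0.19 in cooled embryos, and POLRMT, the mitochondrial RNA polymerase, fell by 0.30 in controls and 0.39 in warmed embryos. Among 35 import partners, chaperones and proteases, 6 rose and 10 fell in controls. VDAC1, the pore of the outer membrane, rose by 0.79, 0.79 and 0.88 in controls, warmed and cooled embryos, and MTCH2, an insertase of the outer membrane, fell by 0.27, 0.27 and 0.31. Of 11 biogenesis regulators 3 rose and 5 fell in controls, where 11.8% of all probe sets were called as higher and 16.4% as lower. PPARGC1A, a coactivator that drives mitochondrial biogenesis, rose by 0.82, 0.75 and 0.77, PPARGC1B, its relative, rose by 0.44, 0.54 and 0.35, and MYC, a growth regulator, fell by 0.47, 0.59 and 0.37. The means of MARS2, POLRMT, PPARGC1A and PPARGC1B lay below the background level in all groups compared.

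The 6 members on chromosome Z (MRPL17, MRPL50, MRPS27, MRPS30, MRPS36 and TOMM5) varied more among animals of 1 group than the rest. Their SD within groups ran from 0.26 to 0.56 in embryos, with a median of 0.44, beside 0.08 to 0.37 with a median of 0.17 for the 67 members on other chromosomes. At D35 it ran from 0.38 to 0.64 beside 0.11 to 0.38. In chickens females carry a Z and a W chromosome and males a pair of Z chromosomes, and most Z genes are not fully balanced between the sexes. The study's methods state that the animals were sexed and the groups balanced for sex. The labels do not give the sex of each animal. A score was therefore taken per array as the mean of the 3 W-linked probe sets that varied most, scaled from 0 to 1 within a stage. It stood at 1 of 2 separate levels: in embryos 25 arrays lay from 3.59 to 4.94 and 23 from 11.91 to 12.53 on the log2 scale, and at D35 21 arrays lay low and 19 high. Each group held 4 high arrays of 8, except L10 and D35 H13 with 3.

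In a fit with the group means and this score, all 6 Z members were called in both stages, each lower where the score was high. None of the 67 members on other chromosomes was called in either. Of all probe sets 3.11% were called in embryos, 0.459% as higher and 2.65% as lower, and 3.04% at D35, 0.652% as higher and 2.39% as lower. MRPS30 ran from 7.79 over 8.83 to 9.79 over the embryos and from 6.18 over 7.38 to 8.21 at D35. Over the range of the score it fell by 1.04 in embryos (SE 0.079, adjusted p = 1.6e-14) and by 1.34 at D35 (SE 0.097, adjusted p = 1.74e-13), or to 0.487-fold and 0.395-fold. TOMM5, a small TOM subunit, fell by 0.98 in embryos (SE 0.081) and 1.25 at D35 (SE 0.11). MRPS27, a small subunit protein, fell by 0.79 and 0.84, MRPL50 by 0.69 and 0.91 and MRPS36 by 0.72 and 0.69.

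MRPL17, of the large subunit, fell by 0.39 in embryos (SE 0.057, adjusted p = 1.27e-06) and 0.97 at D35 (SE 0.093, adjusted p = 3.99e-10); the stages were not compared by a test. Of the 524 probe sets with a symbol on chromosome Z, 317 were lower with the score in embryos and 266 at D35, so that 62.2% and 52.3% were called in either direction. With the score in the fit, the SD of MRPS30 within groups went from 0.56 to 0.25 in embryos and from 0.64 to 0.25 at D35. Standard errors of the Z members fell from a median of 0.23 to 0.12 over the embryo comparisons. MRPL50 was then called as higher in C13 than in C10 (0.23, SE 0.081, adjusted p = 0.0295) and MRPS30 as lower in L13 than in L10 (-0.33, SE 0.12, adjusted p = 0.0456), and no temperature comparison gained a Z member.

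**Figure D3:**
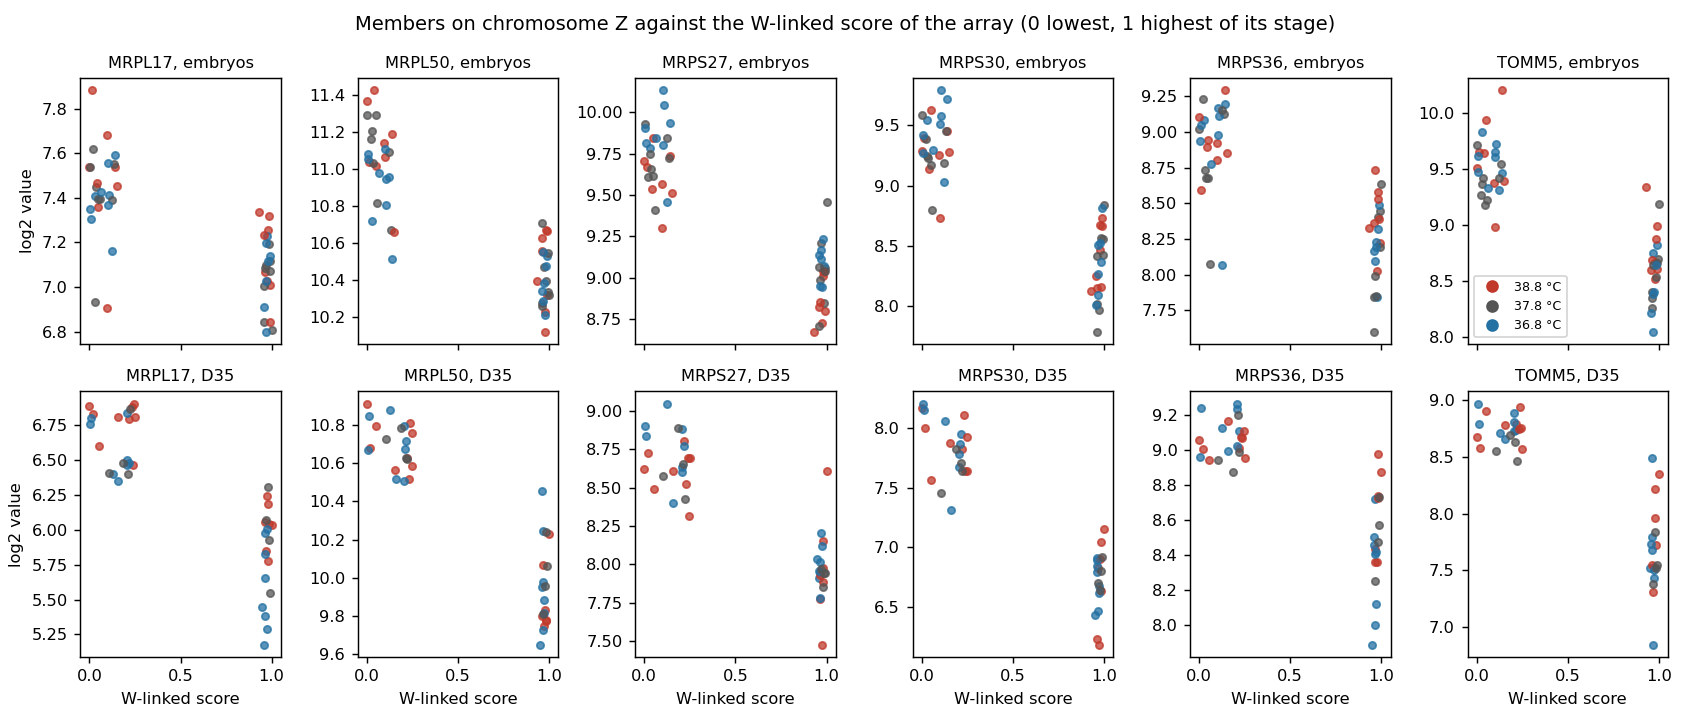
Log2 values (y axis, a range of its own per panel) of the 6 members on chromosome Z in the 48 embryos (upper row) and 40 D35 chickens (lower row) against the W-linked score of each array (x axis, 0 to 1 within a stage), coloured by incubation temperature. Points fall into a cluster of low and a cluster of high scores, and all 6 members lie lower in the second in both rows, as for MRPS30 by 1.04 in embryos and 1.34 at D35.

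The D35 chickens were compared to see what remained of a treatment weeks after hatching. No member was called after any of the 4 treatments or between the windows of 1 temperature. Of all probe sets 0% were called for D35 H10 and D35 L10 against D35 C, 0.00483% for D35 H13, 0.0145% for D35 L13, 0.00483% for D35 H10 against D35 H13 and 0% for D35 L10 against D35 L13. Standard errors of the members ran from 0.062 to 0.31 with a median of 0.11. All 4 treatments were set against the same 8 controls.

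After early warming, 2 members were higher at an unadjusted p of 0.05 and 0 lower, beside 2.83% of all probe sets. MRPL2, of the large subunit, ran from 9.12 over 9.79 to 9.90 in D35 H10 and from 8.80 over 9.26 to 9.91 in D35 C. The groups overlapped throughout, and the difference of 0.39 (SE 0.15) had an adjusted p of 1. TOMM7, called in the H10 embryos, ran from 10.17 over 10.46 to 10.67 in D35 H10 and from 9.95 over 10.26 to 10.46 in D35 C; 4 of 8 chickens exceeded every control, and the difference of 0.17 (SE 0.070) had an unadjusted p of 0.0176 and an adjusted p of 1. MRPL10 was lowest, at -0.14 (SE 0.14, adjusted p = 1), and turned to 0.10 against the 4 controls of the same run of records. The median was 0.03 with 53 members above 0, beside -0.02 over all probe sets, and ran from 0.02 to 0.07 on leaving out 1 array (D35 C replicate 77 and D35 H10 replicate 13). A positive difference of TOMM7, without a call, was not limited to early warming. In D35 H13 all 8 chickens lay above the mean of D35 C, with a difference of 0.13 (SE 0.070, limma unadjusted p = 0.0769). Between D35 H10 and D35 H13 TOMM7 differed by 0.05 (SE 0.070, limma unadjusted p = 0.511).

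After early cooling, 4 members were lower at an unadjusted p of 0.05 and 0 higher, beside 6.29% of all probe sets. MRPS10, of the small subunit, ran from 5.68 over 6.68 to 7.20 in D35 L10 and from 6.58 over 7.03 to 7.30 in D35 C. It was dim, 2 chickens lay under every control, and the difference of -0.45 (SE 0.18) had an adjusted p of 0.762. TIMM22, the channel for carrier proteins, was highest at 0.22 (SE 0.13, adjusted p = 0.830), over values from 6.97 over 7.82 to 8.13 beside 7.08 over 7.52 to 8.06. The median of the members was -0.02 with 33 above 0, beside -0.04 over all probe sets, and turned to 0.02 with 43 above 0 on centring the arrays and to 0.03 without the D35 L10 chicken lowest in TIMM22.

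After late warming no member reached an unadjusted p of 0.05, beside 3.91% of all probe sets. TOMM5, on chromosome Z, was highest at 0.37 (SE 0.30, adjusted p = 1), in a group with 3 high W-linked scores of 8 beside 4 in the controls, and its values of 7.54 over 8.66 to 8.90 overlapped those of 7.38 over 8.15 to 8.69. With the score in the fit, its difference was 0.25 (SE 0.15). MRPL10 was lowest at -0.13 (SE 0.14, adjusted p = 1) and turned to 0.11 against the 4 controls of the same run of records. In all, 50 members lay above 0, with a median of 0.03 beside -0.01 over all probe sets, which turned to -0.0028 without D35 H13 replicate 34.

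After late cooling the median of the members lay furthest above 0, without a call. At an unadjusted p of 0.05, 11 were higher and 1 lower, beside 12.7% of all probe sets. TIMM44 ran from 8.39 over 8.47 to 8.96 in D35 L13 and from 7.93 over 8.28 to 8.32 in D35 C. The groups did not overlap, as held for 0.0821% of all probe sets, yet the difference of 0.42 (SE 0.14) had an adjusted p of 0.192. MRPS2, brighter than the background level, ran from 10.54 over 10.65 to 10.91 beside 9.88 over 10.36 to 10.76, with all 8 chickens above the mean of the controls (0.32, SE 0.090, adjusted p = 0.159). MRPL23 was lowest, from 8.01 over 8.49 to 8.95 beside 8.55 over 8.86 to 9.02 (-0.30, SE 0.13, adjusted p = 0.326).

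By role, the medians after late cooling were 0.08 for the MRPL genes with 26 of 35 above 0, 0.09 for the MRPS genes with 16 of 23, 0.09 for the TOMM genes with 5 of 8 and 0.20 for the TIMM genes with 7 of 8. Over all 74 the median was 0.09 with 54 above 0, beside 0.03 over all probe sets, and quantile normalization reduced it to 0.02 with 39 above 0 and turned the MRPL genes to -0.0042 with 17 of 35 above 0. Of the 38 genes of mitochondrial translation 35 lay above 0 with a median of 0.12, of 35 import partners 25 with 0.11 and of 53 genes of the respiratory chain and ATP synthase 46 with 0.13. None of these was called. The counts of these families are for the deposited scaling, and those under quantile normalization are not given here. The 5 adipocyte markers lay higher too, with a median of 0.56 and array means from 8.87 to 9.83 beside 8.40 to 9.03 in D35 C, as did all 4 endothelial markers, with a median of 0.26. The mean of the sarcomere genes ran from 11.43 to 12.51 beside 11.12 to 12.08. The part of these markers in the members' values was not tested.

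The windows were also set against each other at each temperature. For D35 L10 against D35 L13, 64 members lay below 0 and 10 above, with a median of -0.12 beside -0.07 over all probe sets, and 7 were lower at an unadjusted p of 0.05, beside 8.02% of all probe sets. MRPS10 was lowest: 5.68 over 6.68 to 7.20 in D35 L10 and 6.82 over 7.22 to 7.70 in D35 L13, with 5 of 8 chickens under every D35 L13 chicken (-0.69, SE 0.18, adjusted p = 0.536). TIMM10 was highest at 0.15 (SE 0.11, adjusted p = 0.705), from 7.81 over 8.21 to 8.43 beside 7.80 over 8.05 to 8.35. Under quantile normalization 32 members lay above 0 with a median of -0.03, and on centring 30 with -0.04, so the count of signs rested on the scaling.

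For D35 H10 against D35 H13 the median was 0.01 with 39 above 0 (-0.02 without D35 H13 replicate 50), and 0 members reached an unadjusted p of 0.05, beside 3.77% of all probe sets. MRPL2 was highest at 0.29 (SE 0.15, adjusted p = 1), with 9.12 over 9.79 to 9.90 beside 8.99 over 9.31 to 9.84. TOMM5 was lowest at -0.23 (SE 0.30, adjusted p = 1), with 7.31 over 8.40 to 8.94 beside 7.54 over 8.66 to 8.90. Both overlapped. D35 H10 held 4 high W-linked scores of 8 and D35 H13 held 3. With the score in the fit, the difference of TOMM5 was -0.15 (SE 0.15).

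**Figure D4:**
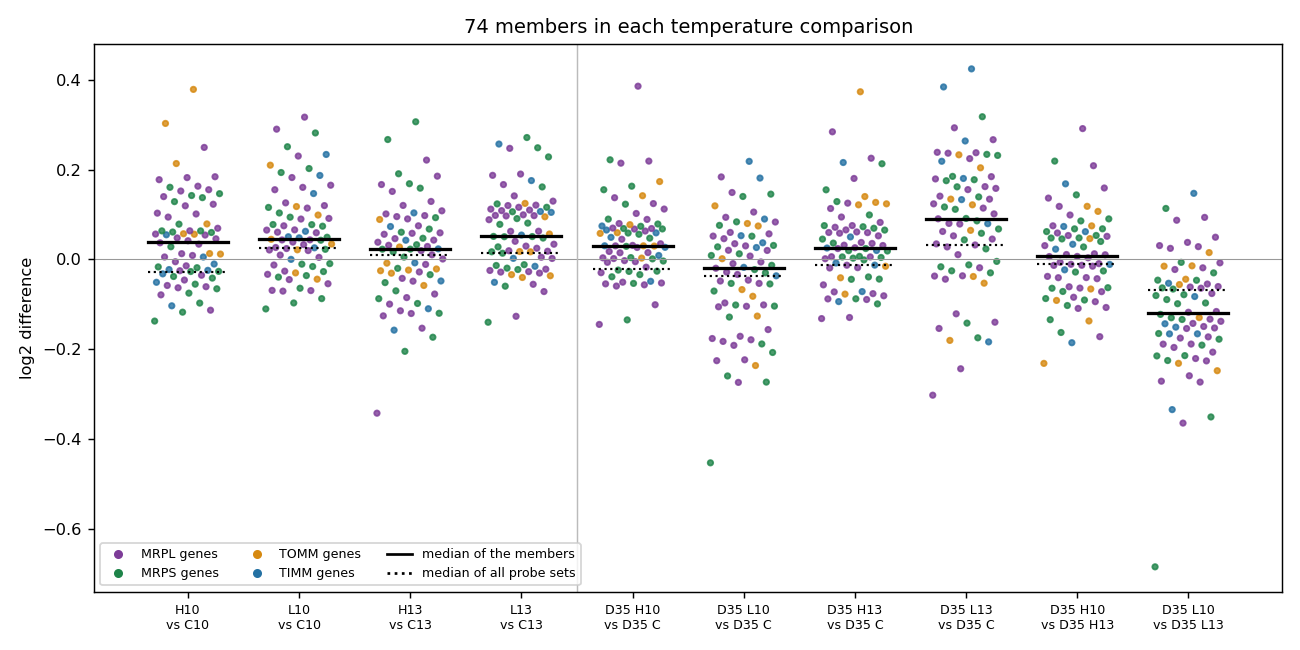
Log2 differences (y axis) of the 74 members in the 4 embryo comparisons (left of the grey line) and the 6 D35 comparisons (right), coloured by symbol family, with the median of the members as a solid and that of all probe sets as a dotted line. Medians of the members lie within 0.12 of 0, the lowest for D35 L10 against D35 L13, and MRPS10 in that comparison, at -0.69, lies farthest from 0.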

How the data were processed

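The mRNA of hind muscle from 48 embryos and 40 D35 chickens was hybridised, animal by animal, to 88 Affymetrix chicken arrays. The authors deposited normalized log2 values per probe set, with GCOS 1.1.1 named in the submitters' processing notes. The summarization, normalization and genome build of these mRNA arrays are not given in the sources used here. A second deposited table differed from the first by 0.0, and 0 pairs of arrays were identical. Depth does not apply, and the number of arrays limits the precision.

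Group means were estimated with limma 3.58.1 in R 4.3.3, separately for embryos and D35 chickens, over 20706 probe sets, with eBayes and Benjamini-Hochberg adjustment per comparison at a threshold of 0.05, after the 98 control probe sets were left out and with no filter on level. Slaughter weight, a covariate of the study's D35 miRNA model, was not used here, since the labels do not give it. Scripts were tested on simulated data.

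Symbols came from the array annotation, and chromosomes from the GRCg7b gene table, which held 73 of the 74 genes by gene ID (not MRPL35). For MRPS26 the probe set that stood for the gene differed between stages, and its embryo probe set has the same values as a probe set without a symbol. The members and gene lists were chosen with earlier results of these data known. Values per array are given for the members past the threshold (over 6: the 3 with the smallest adjusted p in each direction) or, with none, for those with the highest and the lowest difference, and for members on chromosome Z. TOMM5, TOMM6, TIMM44, MRPS2 and MRPL46, MRPS34 and MRPL3 against C13, TOMM7 at D35, and further stage differences beyond that rule (such as TOMM22 and MRPL51) were added after their values were seen. Alternatives covered scaling, dim probe sets, moderation, array weights, the arrays fitted, the W-linked score, skin and sarcomere markers, number series of embryos, runs of the D35 records, control group, probe set and single arrays. The sarcomere covariate was added after the data were seen. Promoter motifs were not analysed here.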

Additional observations from a re-analysis of the deposited data

Results flagged for a closer look

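Among 80 values tested, namely the named members and the mean of all members in each group of 8, 6 held an array that stood apart from the other 7 by more than Dixon's 95% limit of 0.526 of the range. Chance flags about 1 in 20 groups. In embryos these were MRPL53 at 8.79 in C10 (replicate 70, others 7.64 to 8.18), MRPL3 at 11.46 in C13 (replicate 91, others 11.68 to 11.79), MRPS26 at 9.79 in L10 (replicate 59, others 8.81 to 9.19) and MRPL33 at 9.11 in L13 (replicate 75, others 8.88 to 8.97). At D35 they were the mean of the members at 8.69 in D35 H13 (replicate 34, others 8.41 to 8.54) and TIMM22 at 6.97 in D35 L10 (1 chicken, others 7.68 to 8.13).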

How the results depend on the processing

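For H10 against C10 the count of 1 called member became 3 under quantile normalization and under centring on array medians, 0 with only the groups compared, 0 against the controls of the same number series, and 0 (without H10 replicate 6) to 2 (without H10 replicate 16) on leaving out 1 array. Array weights called 3 members for H13 against C13 (MRPL40 and MRPS2 higher, MRPS34 lower), 1 for the warm interaction (TOMM7) and 23 and 18 for ED13 against ED10 in controls and cooled embryos. Quantile normalization called 1 for L13 against C13 and 20 in the control stage comparison, of which 3 higher and 17 lower beside 4 and 9, and centring 4 and 13 there. The first number series alone called 7 in that comparison. Shares of all probe sets called under the settings of this section are not given here, so its counts do not set the members apart from the array. The sarcomere covariate, chosen after seeing the data, gave 10 calls in place of 21 for warmed and 6 in place of 10 for cooled embryos, and turned TOMM70 to -0.0035 in controls and -0.0324 in warmed embryos, MRPL33 to -0.15 in warmed and -0.10 in cooled embryos and TIMM21 to -0.0355 in cooled embryos.

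Without dim probe sets 23 embryo and 14 D35 members were tested, which called 13 in warmed and 6 in cooled embryos between stages, 1 for L13 against C13, 1 for the warm interaction, 1 for D35 L13 and 1 for the W-linked score in each stage. With the run of D35 records as a covariate or the controls of that run alone, MRPL10 turned to 0.10 in D35 H10 and 0.11 in D35 H13. On leaving out 1 array the stage comparisons called 10 to 15 members in controls, 18 to 23 in warmed and 9 to 12 in cooled embryos, and all comparisons of temperature except H10 against C10 0. TOMM20 lost its call in controls without C10 replicate 17, 63, 64 or 65 or C13 replicate 41, 42, 87, 88 or 89 (adjusted p 0.0551 to 0.112), MRPL33 in warmed embryos without H10 replicate 4, 13, 14 or 16 or H13 replicate 25, 27, 28, 29, 30 or 32 (0.0553 to 0.1195), and TIMM21 in cooled embryos without L10 replicate 59, 60 or 61 or L13 replicate 72, 74 or 75 (0.0555 to 0.0981). The causes were not tested. No paired analysis was possible because the groups of a stage share no replicate numbers, each being a separate animal.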
